A study of Taeniopygia guttata with 22 samples.

Results

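The sex difference in gene expression in RA of zebra finches at 50 days posthatch was measured by RNA sequencing of 5 male and 7 female libraries, which are 12 of the 22 libraries of the series. The libraries were chosen by their labels, as all those of 50-day males and all those of 50-day females, and each was matched to its column of the count table by the brain id of the bird. RA is the robust nucleus of the arcopallium. It was dissected with a laser from frozen brain sections stained with cresyl violet, its RNA was isolated, and cDNA was made from 1 ng of total RNA with the SMART-Seq v4 kit. All birds of both sexes were killed within 20 min of lights-on, and none was seen to sing. The males at 50 days and the females at 50 days thus share tissue, age, dissection and library kit, and the labels name no treatment, strain or pooling of birds. The remaining libraries are of 5 males and 5 females at 20 days, which were used here to estimate the spread of each gene and for 1 comparison between ages.

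RA is the motor output station of the forebrain circuit for learned song. Its projection neurons receive input from the song nuclei HVC and LMAN and drive the brainstem neurons of the vocal organ and of breathing, and adult male projection neurons fire fast, regular trains of spikes. In zebra finches only males sing, and RA grows in young males while it shrinks and loses neurons in young females. At 50 days a young male is practising a variable, plastic song.

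Total counts, in M (1000000 counts), were 61.57 M, 18.49 M, 19 M, 61.19 M and 51.96 M in male replicates 1 to 5, and 17.6 M to 51.6 M in the 7 female libraries. The male set thus held 3 deep libraries (above 40 M) and 2 shallow ones, and the female set held 1 deep library, replicate 6, and 6 shallow ones. The labels give each replicate its own brain id. Those of female replicates 1 to 5 end in a letter, and those of female replicates 6 and 7 and of every male do not. What the letter means is not given, and its part in the differences was not tested. The ids of female replicates 5 and 6 share a number and may be of 1 bird. Counts of these 2 were the closest of any 50-day pair of a sex (chi-square of 17.54 per gene, the next being 28.98). The first principal component of the 12 libraries held 38.4% of the variance and separated males (31.4 to 53.1) from females (-40.6 to -17.9), and the second (9.65%) set female replicates 5 and 6 (34.8 and 31.8) apart from all other libraries (-24.5 to 7.78). Z-linked genes, of which males carry a copy more than females, gave every library the sex on its label: the Z score, which is how far the median Z-linked gene lies above the median autosomal gene on a centred log2 scale, was 0.298 to 0.395 in males and -0.303 to -0.242 in females. The number of genes detected at 1 depth differed by 234 between the means of the sexes (exact two-sided permutation p = 0.145). The 50 most abundant genes took 12.6 ± 0.104% of the counts in males (SD, n = 5) and 11.4 ± 0.315% in females (SD, n = 7; exact permutation p = 0.00126, the smallest this design can give).

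In all 5304 of 16004 tested genes (33.1%) were called in edgeR's quasi-likelihood test, the threshold being an adjusted p (Benjamini-Hochberg) under 0.05. Those higher in males numbered 2556 (16% of the genes tested) and those lower in males 2748 (17.2%). Counts of called list members below are to be read beside these shares. A difference of at least 2-fold was found for 1471 called genes (9.19%), 824 higher and 647 lower, and one of at least 4-fold for 189 higher and 115 lower. For 2574 genes (16.1%) no male library overlapped any female library. Genes called higher in males took 33.8 ± 1.15% of the counts of tested genes in males and 22.6 ± 1.01% in females (SD, n = 5 and 7). Genes called lower took 16.8 ± 0.844% in males and 26 ± 1.23% in females. RNA was read from the whole dissected nucleus, and fewer cells of a type cannot be told apart from less RNA per cell for any gene below. Of the 2556 higher genes 1072 were also called in the shallow libraries alone and 502 in the deep libraries alone, and of the 2748 lower ones 805 in the shallow and 457 in the deep libraries. The deep set holds 1 female library at 50 days, which that fit assumes to vary like the other groups. With the depth set as a model term 4018 genes were called in place of 5304, and with female replicates 5 and 6 summed to 1 library 5001. Of the genes named as called below, ADORA2B, DCN, EFNA1, KCNA1, MFSD2A, NPY1R and PTPRZ1 were not called with that term (adjusted p = 0.229, 0.0793, 0.0787, 0.0625, 0.0869, 0.057 and 0.072 in that order), nor were C7 and VIPR1.

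**Figure D1:**
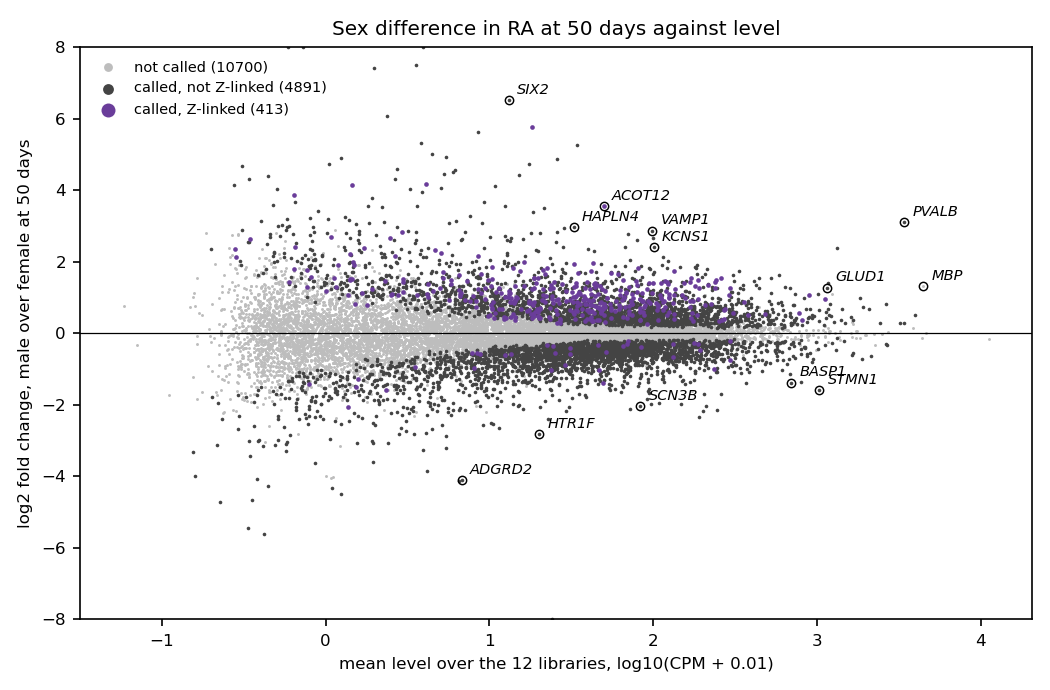
Log2 fold change (male over female, 50 days) of the 16004 tested genes against their mean level over the 12 libraries, on a log10 scale of counts per 1000000 counts of a library (CPM). Grey points are genes not called, dark points called genes off the Z chromosome, and purple points the 413 called Z-linked genes. Circles mark genes named in the text, and log2 fold changes beyond 8 on either side are drawn at the edge. Called genes are found on both sides of 0 at every level above the lowest, and PVALB stands out among the most abundant ones.

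Of 658 tested Z-linked genes 57.4% were higher in males and 5.32% lower, with a median log2 fold change of 0.67 (quartiles 0.22 and 1.07). Autosomal genes made up most of both sets, with 2003 of the higher and 2541 of the lower genes, and their median was -0.05. Z-linked genes spread about as widely as the rest at this age: the SD of the log2 fold change was 0.751 for Z-linked and 0.722 for autosomal genes. ATG12, an autophagy gene on Z, had the smallest p of the genes named here, with 125, 127, 119, 135 and 114 CPM in male replicates 1 to 5, against 42.4, 47.5 and 56.6 CPM as the lowest, median and highest of the 7 female libraries. Male values below keep that order of replicates, and 3 female values are always the lowest, the median and the highest. The 2 sets of ATG12 values lay far apart (log2 fold change 1.35, SE 0.07, adjusted p = 4.46e-11).

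Some Z-linked genes went well beyond the usual male excess. ACOT12, which encodes an acyl-CoA thioesterase, stood at 103, 117, 99.2, 134 and 82.3 CPM in males, against 4.35, 6.23 and 25.5 CPM in females (log2 fold change 3.56, SE 0.40, adjusted p = 5.47e-07). All females except replicate 7, the highest, were under 11 CPM. GDNF, a growth factor for motor and dopamine neurons, is also on Z and stood at 7.3, 7.34, 12, 11.2 and 9.2 CPM in males, against 1.09, 2.02 and 2.58 CPM in females (log2 fold change 2.25, SE 0.26, adjusted p = 6.94e-07). Other Z-linked genes at more than 3-fold were CKS2, a cell cycle subunit (4.48-fold), GRHPR, glyoxylate reductase (3.87-fold), the queuosine salvage gene QNG1 (3.78-fold) and the complement gene C7 (3.56-fold). C7 was not called with the depth term (adjusted p = 0.101).

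A smaller set of Z-linked genes ran against the male copy number. PHF24 stood at 157, 164, 138, 140.1 and 151 CPM in males, against 256, 296 and 352 CPM in females, with no overlap (log2 fold change -0.99, SE 0.10, adjusted p = 7.09e-08). DIRAS2, a small GTPase gene, averaged 28.8 ± 5.54 CPM in males and 59.5 ± 11.1 CPM in females (SD, n = 5 and 7; log2 fold change -1.05). IL11RA (-0.61) and the ephrin gene EFNA5 (-0.55) were lower by less. None of the 6 tested genes classed as W-linked was called (median log2 fold change -0.10). Their class comes from a gene table that may differ from the build aligned to. Whether their reads come from W was not tested.

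Among the autosomal genes with the largest rise SIX2, a homeobox factor of early development, stood at 36.8, 19.3, 31.5, 33.5 and 33.7 CPM in males, while 4 of the 7 female libraries had no count and the highest had 1.33 CPM (adjusted p = 2.5e-05; the fitted fold is no bound). SLC30A2, a zinc transporter, averaged 12.4 ± 17.1 CPM in males and 0.419 ± 0.357 CPM in females (30.2-fold), and BGLAP, osteocalcin, 13.9 ± 7.73 CPM in males and 0.603 ± 0.406 CPM in females (23.5-fold). The male libraries of SLC30A2 were very uneven, their SD being above their mean, and its fold rests unequally on them. CALML4, a calmodulin-like gene, was 7.04-fold higher. TXNRD1, thioredoxin reductase, was 8.75-fold higher and AOAH, which inactivates lipopolysaccharide, 8.48-fold. In all 12 genes named for the largest rise on any chromosome, Z-linked ACOT12 among them, every male library lay above every female one. The naming rule required this.

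Among the most abundant genes that were at least 2-fold higher PVALB, parvalbumin, which buffers calcium in fast-spiking neurons, stood at 5789, 6398, 7764, 8337 and 6824 CPM in males, against 609, 775 and 1152 CPM in females (log2 fold change 3.11, SE 0.22, adjusted p = 8.02e-10). The lowest male lay far above the highest female. Other abundant genes of this kind were the sodium pump modulator NKAIN4 (3.07-fold), the glial receptor GPR37L1 (2.39-fold), the fatty acid elongase ELOVL5 (2.53-fold), the acyl-CoA binding protein DBI (2.33-fold), the protease HTRA1 (2.14-fold), RGCC (2.89-fold) and GGACT (2.38-fold).

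ELOVL2, an elongase for very long polyunsaturated fatty acids, stood at 342, 256, 257, 308 and 390.5 CPM in males, against 70.2, 89.7 and 93.2 CPM in females (log2 fold change 1.86, SE 0.12, adjusted p = 2.68e-10). AQP9, an aquaporin that also passes glycerol and lactate, stood at 115, 119, 101, 138 and 109 CPM in males, against 24.5, 31.5 and 38.4 CPM in females (log2 fold change 1.88, SE 0.11, adjusted p = 9.4e-11). Both had among the smallest p-values of the autosomal genes, and neither overlapped between the sexes. EMC2, of the membrane protein insertion complex of the endoplasmic reticulum, was 2.6-fold higher and CCND3, cyclin D3, 3.25-fold.

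Of the autosomal genes furthest below females ADGRD2, an adhesion receptor, averaged 0.617 ± 0.725 CPM in males and 11.2 ± 7.25 CPM in females (log2 fold change -4.10). VIM, the intermediate filament of immature and reactive cells, stood at 103, 75.2, 60.8, 54.8 and 111 CPM in males, against 211, 386 and 549 CPM in females (log2 fold change -2.17, SE 0.23, adjusted p = 1.9e-07), again with no overlap. SAMD11 (-2.12), SERPINB5 (-2.15), the calcium-dependent membrane protein CPNE7 (-2.39) and the integrin ligand NPNT (-2.58) were lower as well. Among abundant genes, STUM averaged 398 ± 177 CPM in males and 887 ± 113 CPM in females, and the vesicle GTPase RAB26 284 ± 83.2 CPM in males and 592 ± 51.7 CPM in females, with log2 fold changes of -1.16 for STUM and -1.06 for RAB26. DOK5, a docking protein of receptor kinases (-1.44), NEXMIF, a neurite gene (-1.39), and CELF6, an RNA-binding splicing factor (-1.02), were among the 8 autosomal genes with the smallest p in this direction.

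**Figure D2:**
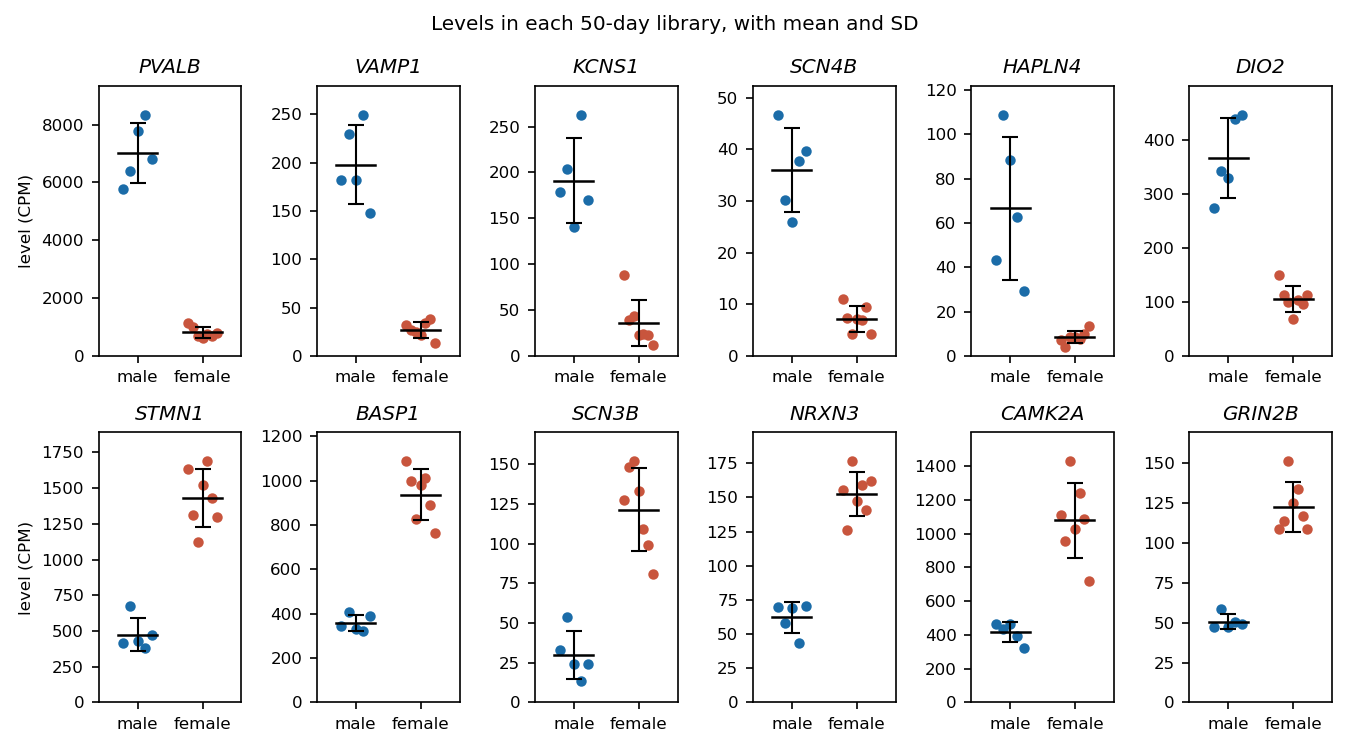
Levels (CPM, linear axes from 0) of 12 genes in each 50-day library, males (n = 5) at the left and females (n = 7) at the right of each panel. Points are libraries, the long bar is the mean and the whisker the SD. The upper row holds genes higher in males and the lower row genes lower in males, and the sexes do not overlap in any panel. These 12 genes were picked from those named in the text, and 16.1% of all tested genes had no overlap.

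Genes that set the firing of neurons changed in both directions, and more often downward. Of 18 tested subunits of the Kv2 and Kv4 families and their silent partners 11 were lower in males and 1 higher, with a median log2 fold change of -0.72, against -0.03 for all tested genes. The lower ones included KCND2 (-0.83), an A-type channel, and its partners KCNIP1 (-0.91) and KCNIP2 (-1.06). The member that rose was KCNS1, a silent subunit that joins Kv2 channels, at 179, 204, 140.0, 263 and 169.8 CPM in males, against 11.5, 23.7 and 87.8 CPM in females (log2 fold change 2.41, SE 0.35, adjusted p = 1.53e-05). Female replicate 1 was the highest of its sex and still below all males.

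Kv3 channels, which end spikes quickly, split by member. KCNC1 stood at 268, 242, 327, 345 and 223 CPM in males, against 134, 152 and 183 CPM in females (log2 fold change 0.88, SE 0.10, adjusted p = 6.67e-07). KCNC2 averaged 138 ± 20.1 CPM in males and 257 ± 27.3 CPM in females (-0.90), and KCNC4 13.8 ± 5.2 CPM in males and 41.5 ± 5.13 CPM in females (-1.60). All 3 separated the sexes without overlap. In the Kv1 family 3 of 7 members were lower (KCNA1 -0.49, KCNA3 -1.36, KCNA5 -1.10), and the beta subunit KCNAB2 was higher (0.57).

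Of 12 KCNQ and KCNH channels 4 were lower and 1 higher. KCNQ5, a channel of the slow M-current, stood at 1.62, 2.63, 1.77, 5.62 and 1.83 CPM in males, against 6.46, 15 and 24.4 CPM in females (log2 fold change -2.55, SE 0.41, adjusted p = 4.57e-05). KCNQ3 was not called (-0.18, adjusted p = 0.422). Among HCN pacemaker channels HCN3 (-0.92) and HCN4 (-2.37) were lower, and HCN2 averaged 21.9 ± 6.19 CPM in males and 21.4 ± 6.39 CPM in females (adjusted p = 0.914). Of 8 calcium- and sodium-activated channels 4 were lower, KCNT1 among them (-0.85), and the Z-linked SK channel KCNN2 was higher (0.64).

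Inward rectifier and two-pore channels, which set the resting potential, had 7 of 19 members lower and 4 higher. KCNJ10, the inward rectifier of glia, had one of the smallest p-values, with 36.9, 44.2, 38.1, 48.6 and 43.9 CPM in males, against 7.77, 9.2 and 13.3 CPM in females (log2 fold change 2.11, SE 0.16, adjusted p = 1.32e-09). KCNK1 (0.91) and KCNJ5 (1.22) were higher too, while KCNJ4 (-1.27), KCNJ6 (-0.65), KCNK2 (-0.94) and KCNK10 (-1.23) were lower. KCNK17 was uneven, with 21.9, 1.96, 32.8, 54.4 and 22.3 CPM in males, against 0.849, 1.33 and 5.62 CPM in females. Male replicate 2 lay inside the female range and the other 4 males above it (adjusted p = 0.000195).

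Sodium channel genes had 7 of 9 tested members lower and 1 higher. SCN4B, the subunit linked to resurgent current, was the higher one, at 46.7, 30.1, 26, 37.8 and 39.8 CPM in males, against 4.18, 7.06 and 10.9 CPM in females (log2 fold change 2.33, SE 0.41, adjusted p = 0.000127). SCN3B, a subunit of young neurons, stood at 32.9, 53.6, 24.1, 13.4 and 24.2 CPM in males, against 81.1, 128 and 152 CPM in females (log2 fold change -2.04, SE 0.24, adjusted p = 9.63e-07). The pore gene SCN2A (-0.91) and the channel partners FGF13 (-0.71) and FGF14 (-0.70) were lower, and SCN8A was not called (-0.18, adjusted p = 0.461). Of 19 voltage-gated calcium channel genes 11 were lower and 1 higher (median -0.64), with CACNA1E of the R-type (-1.82), the T-type genes CACNA1G (-1.24) and CACNA1H (-1.43) and CACNA1C of the L-type (-0.75) among the lower.

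Pumps and exchangers were divided, with 9 of 21 lower and 6 higher. SLC24A4, a potassium-dependent sodium-calcium exchanger, stood at 36.3, 29.4, 38.8, 52.8 and 28.7 CPM in males, against 5.3, 8.58 and 9.55 CPM in females (log2 fold change 2.31, SE 0.21, adjusted p = 2.69e-08), without overlap. The related exchanger SLC24A2, on Z, was higher (1.42), as was the sodium pump subunit ATP1B2 (1.55), while the sodium-calcium exchanger SLC8A1 (-0.89), the calcium pump ATP2B4 (-0.86) and the chloride exporter SLC12A5 (-0.74) were lower. SLC12A2, the chloride importer on Z, was higher (0.74).

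Of 22 calcium buffers and sensors 6 were lower and 4 higher (median -0.14), beside 17.2% lower and 16% higher of all genes. HPCAL4, a neuronal calcium sensor, stood at 98.2, 94.1, 47.1, 25.6 and 64.8 CPM in males, against 190.0, 329.7 and 416 CPM in females (log2 fold change -2.17, SE 0.26, adjusted p = 1.42e-06). Relatives NCALD (-1.03), HPCAL1 (-0.71) and NECAB2 (-1.17) were lower too, and CABP1 was higher (0.87). The buffer genes CALB1 (-0.22, adjusted p = 0.144) and CALB2 (-0.56, adjusted p = 0.0828) were not called, in contrast to PVALB.

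At the synapse, release machinery held a few of the largest rises among more falls. VAMP1, the vesicle SNARE of fast synapses and motor neurons, stood at 182, 229, 182, 249.5 and 148 CPM in males, against 13.3, 26.4 and 37.9 CPM in females (log2 fold change 2.87, SE 0.26, adjusted p = 2.46e-08). SYT2, a fast calcium sensor of release, stood at 116, 292, 148, 203 and 215 CPM in males, against 8.16, 30 and 59.1 CPM in females (log2 fold change 2.66, SE 0.56, adjusted p = 0.000759). Its females ran widely and still ended below the lowest male. CPLX1, the Z-linked complexin, averaged 1286 ± 182 CPM in males and 612 ± 103 CPM in females (1.07). Among 35 synaptotagmins, SNAREs and complexins 5 were higher, a share below the 16% of all genes, and 10 lower, beside 17.2%. The lower ones included SYT1 (-0.72), SYT4 (-0.76), SYT7 (-1.27) and SYT17 (-1.49).

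Vesicle and active zone genes had 17 of 40 members lower and 3 higher, with DOC2B (-1.41), SYN3 (-1.02) and the scaffold BSN (-0.81) among the lower. Among the 3 higher were RAB3C (0.52) and SH3GL2 (0.51), both on Z. The synuclein gene SNCB was lower (-0.50).

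Receptors for glutamate shifted between subunits. GRIN2A, the NMDA receptor subunit of mature synapses, stood at 121, 139, 177, 209 and 119 CPM in males, against 75.1, 82.6 and 105 CPM in females (log2 fold change 0.83, SE 0.13, adjusted p = 5.3e-05). GRIN2B, the subunit of young synapses, stood at 47.6, 58.5, 47.6, 50.7 and 49.1 CPM in males, against 109, 117 and 151 CPM in females (log2 fold change -1.28, SE 0.13, adjusted p = 1.97e-07). Neither gene overlapped between the sexes, and the 2 changed in opposite directions. GRIN1, the subunit common to all NMDA receptors, was not called (-0.08, adjusted p = 0.714). In all 6 of 16 ionotropic receptor genes were lower, GRIA1 (-0.84), GRIA2 (-0.39) and GRIK2 (-1.07) among them, and 2 higher.

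Among metabotropic glutamate receptors GRM2 (-1.90), GRM5 (-1.39), GRM8 (-0.85) and GRM7 (-0.42) were lower, and GRM4 (0.84) and GRM3 (0.49) higher. GRM7 lost its call without male replicate 3, 4 or 5 (adjusted p up to 0.0747). GABA and glycine receptors had 13 of 22 members lower and none higher (median -0.44), with the GABA-A subunit GABRG1 (-1.15), the GABA-B subunit GABBR2 (-0.60), the glycine receptor GLRA2 (-1.14) and their anchor GPHN (-0.52).

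Postsynaptic scaffolds had 12 of 21 members lower, such as SHANK2 (-0.47) and GRIP2 (-1.20), and 1 higher, HOMER3 (0.85). Synaptic adhesion genes, which pair the 2 sides of a synapse, had 30 of 48 lower and 5 higher (median -0.60), with 3 higher when male replicate 1 was left out. NRXN3, a neurexin, stood at 69.9, 58.4, 68.8, 43.7 and 70.5 CPM in males, against 126, 156 and 176 CPM in females (log2 fold change -1.29, SE 0.12, adjusted p = 2.46e-08). LRRTM2 (-1.57), LRRC4C (-0.99) and SLITRK6 (-1.42) fell too. CNTNAP2, a neurexin relative that clusters potassium channels on axons and that FOXP2 controls in human cells, was higher (0.74), as was CNTNAP1 (0.58).

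Kinases downstream of calcium included some of the abundant genes lower in males. CAMK2A, the alpha subunit of the main synaptic calcium kinase, stood at 467, 433, 466, 395 and 322 CPM in males, against 720.2, 1084 and 1428 CPM in females (log2 fold change -1.38, SE 0.13, adjusted p = 3.52e-08). CAMKV, a kinase relative of dendritic spines, stood at 60.8, 108, 75.8, 48.7 and 81.7 CPM in males, against 211, 280.4 and 458 CPM in females (log2 fold change -2.04, SE 0.20, adjusted p = 6.72e-08). Both were lower in every male than in any female. Of 32 calcium-dependent kinases and phosphatases 12 were lower and 2 higher. The cyclic nucleotide enzymes had 13 of 36 lower, ADCY1 (-1.02) and GUCY1B1 (-0.72) among them, and 2 higher, GUCY1A2 (0.74) and PDE3B (0.61). RGS proteins, which shorten G protein signals, had 6 of 17 lower, led by RGS8 with 112 ± 61.9 CPM in males and 367 ± 72.9 CPM in females, and 4 higher, among them RGS4 (0.48).

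Marker genes of inhibitory neurons were the list with the largest share lower in males, 26 of 32, with 2 higher and a median of -0.91. GAD1, which makes GABA, stood at 226, 298, 301, 193 and 251 CPM in males, against 383, 446 and 529 CPM in females (log2 fold change -0.84, SE 0.12, adjusted p = 1.2e-05). No male overlapped a female. GAD2 (-0.90), the vesicular transporter SLC32A1 (-0.81), DLX1 (-1.36), DLX2 (-1.58) and LHX6 (-0.91) fell as well, and the member with the largest rise was NDNF (1.19). Summed over the list, marker levels were 2033 to 2735 CPM in males and 3459 to 4488 CPM in females.

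Markers of pallial projection neurons had 19 of 43 members lower and 4 higher, the higher ones numbering 1 without male replicate 1 or 5. Their summed level was 5103 to 5624 CPM in males and 5707 to 8166 CPM in females, without overlap. SLC17A6, the vesicular glutamate transporter of RA neurons, did not differ detectably, with 589, 645, 564, 493 and 482 CPM in males, against 395, 559 and 614 CPM in females (log2 fold change 0.05, SE 0.11, adjusted p = 0.784). ETV1, a factor of deep-layer cortical output neurons in mammals, was not called either (0.17, adjusted p = 0.66). NR4A2 (-1.10), SOX5 (-0.97), LHX9 (-0.97), TSHZ3 (-0.80), SATB1 (-0.75) and FOXP2 (-0.93) were lower, and NFIB, on Z, was higher (0.59). Of 44 other homeobox and patterning factors tested 17 were lower and 3 higher, and ID1 (0.76) was higher, as was SIX2.

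Markers of striatal neurons, which lie outside RA, had 7 of 17 members lower and 1 higher, and that one was SCN4B. Their summed level was 396.9 to 469.7 CPM in males and 454.7 to 592 CPM in females, and the part of neighbouring tissue in the differences was not tested. FOXJ1, which marks ependyma, averaged 0.166 ± 0.174 CPM in males and 0.6 ± 0.351 CPM in females, and no gene of the ependymal list was called.

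Receptors for neuropeptides were mostly lower in males. Of 31 neuropeptide receptors 20 were lower and 1 higher (median -0.94). NPY2R, a receptor of neuropeptide Y on nerve endings, stood at 31.3, 46, 42.9, 28.6 and 63.2 CPM in males, against 99.2, 128 and 153 CPM in females (log2 fold change -1.62, SE 0.18, adjusted p = 3.54e-07). CRHR1, the receptor of corticotropin-releasing hormone, was at 3.07, 3.14, 3.01, 2.28 and 4.04 CPM in males, against 9.94, 11.4 and 19.6 CPM in females (log2 fold change -2.03, SE 0.24, adjusted p = 9.35e-07). Neither gene overlapped between the sexes. TACR1, for substance P (-1.88), the opioid receptor OPRM1 (-0.90), NPY1R (-0.45) and SSTR1 (-0.51) were lower too. VIPR1, for vasoactive intestinal peptide, was the 1 called higher, with 19.1, 1.18, 9.29, 54.6 and 5.46 CPM in males, against 3.3, 4.35 and 6.12 CPM in females. Its males spread from below to well above the females, and it was not called with the depth term (adjusted p = 0.494) or without male replicate 4, female replicate 4 or female replicate 6 (adjusted p up to 0.29).

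Among 29 peptides and their processing genes 13 were lower and 2 higher, and without male replicate 3 or male replicate 4 the lower ones numbered 8. CRH averaged 23.1 ± 5.97 CPM in males and 45.7 ± 9.02 CPM in females (-0.99). CRHBP, the binding protein for CRH and urocortins, on Z, stood at 414, 321, 118, 197 and 138 CPM in males, against 72.6, 109.8 and 174 CPM in females (log2 fold change 0.88, SE 0.26, adjusted p = 0.0118). Male replicates 3 and 5 lay inside the female range, and without male replicate 1 the gene was not called (adjusted p = 0.0784). UCN3, urocortin 3, had 0.033, 0, 0, 0 and 0.0385 CPM in males, while female replicates 5, 6 and 7 had 119, 123 and 47.2 CPM and the other 4 females at most 0.135 CPM. The call (adjusted p = 0.00462) thus rests on those 3 libraries, of which 2 may be of 1 bird. PCSK1, a prohormone convertase on Z (-1.41), and SCG2 (-0.75) were lower.

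Receptors for amines and acetylcholine had 13 of 40 members lower and 6 higher. HTR1F, a serotonin receptor, stood at 4.2, 6.73, 3.33, 2.77 and 5.08 CPM in males, against 20.8, 28.9 and 42 CPM in females (log2 fold change -2.84, SE 0.32, adjusted p = 5.47e-07). ADRA2A, an inhibitory adrenergic receptor, stood at 49.2, 24.8, 10.4, 22 and 14.7 CPM in males, against 60.2, 113 and 160.1 CPM in females (log2 fold change -2.13, SE 0.50, adjusted p = 0.00217). In both the highest male lay below the lowest female. ADRA1A, an excitatory adrenergic receptor, went the other way, with 12.3, 13.3, 11.4, 21.6 and 7.46 CPM in males, against 0.195, 2.12 and 5.26 CPM in females (log2 fold change 2.63, SE 0.47, adjusted p = 0.000141).

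MTNR1B, a melatonin receptor, stood at 12.2, 18.9, 15.2, 21.5 and 11.2 CPM in males, against 0.955, 1.44 and 2.92 CPM in females (log2 fold change 3.26, SE 0.40, adjusted p = 1.33e-06). The D1-type dopamine receptors split, DRD5 being higher (2.32) and DRD1 lower (-0.60). CHRNA4, a nicotinic subunit (-1.62), and CHRM4, a muscarinic receptor (-1.23), were lower. TPH1, the first enzyme of serotonin synthesis, stood at 44.5, 1.4, 34.5, 30.4 and 60.5 CPM in males, against 0.743, 1.44 and 3.03 CPM in females (log2 fold change 4.42, SE 0.57, adjusted p = 2.88e-06). Male replicate 2, which was also low in KCNK17, lay within the female range.

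Purine and endocannabinoid genes had 5 of 19 members higher and 3 lower, beside 16% higher and 17.2% lower of all genes. NT5E, the surface enzyme that makes adenosine, stood at 115, 225, 169, 146 and 76.2 CPM in males, against 23.6, 38 and 64.2 CPM in females (log2 fold change 1.88, SE 0.26, adjusted p = 6.21e-06). ENTPD2 (0.74) and the receptor ADORA2B (0.65) were higher too. The cannabinoid receptor CNR1 (-0.58) and the enzymes of its ligand DAGLA (-0.70) and DAGLB (-0.36) were lower.

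Immediate early genes, which neurons switch on with activity, were lower at 17 of 28 members and higher at 1 (median -0.51). EGR1, known as ZENK in songbirds, stood at 11.9, 8.97, 3.65, 4.31 and 6.62 CPM in males, against 15.9, 29.2 and 45.6 CPM in females (log2 fold change -2.08, SE 0.37, adjusted p = 0.00013). FOS stood at 21.9, 10.4, 5.69, 4.06 and 10.9 CPM in males, against 11.3, 42.6 and 73.6 CPM in females (log2 fold change -2.08, SE 0.44, adjusted p = 0.000875), with male replicate 1 and female replicate 1 crossing. ARC, of dendrites, stood at 131, 83, 81, 70.6 and 72.1 CPM in males, against 179, 228 and 272 CPM in females (log2 fold change -1.37, SE 0.17, adjusted p = 1.78e-06). JUND (-0.98), BDNF (-1.18) and KLF6 fell with them, and DUSP6, a brake on ERK signalling, rose (0.98).

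**Figure D3:**
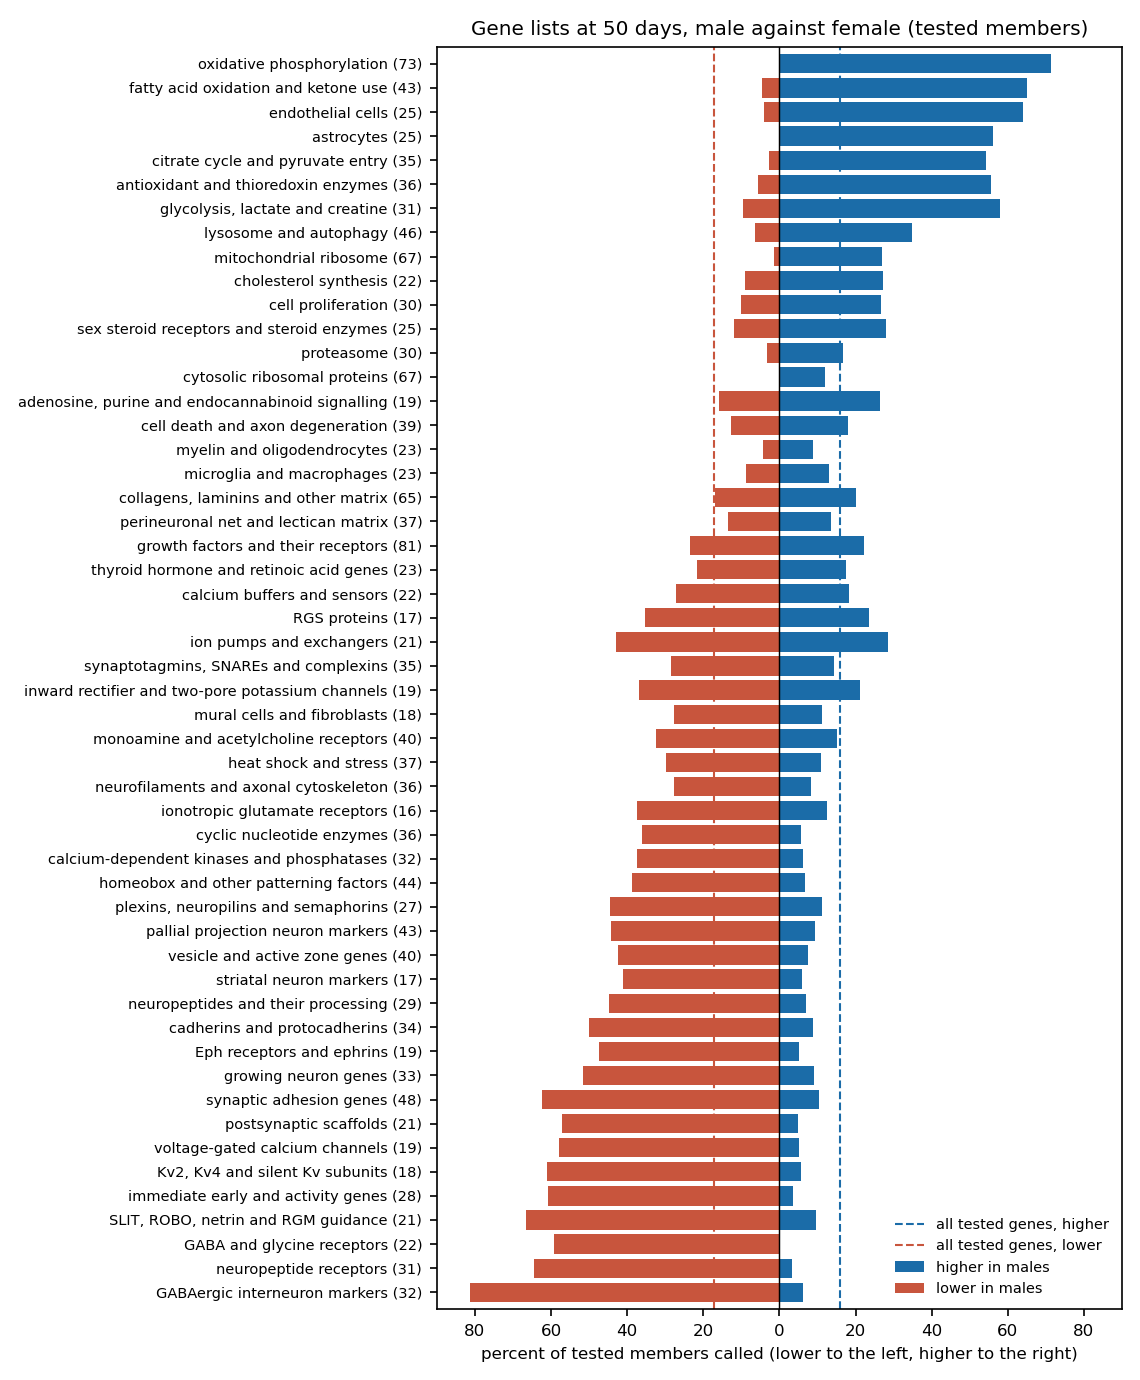
Percent of the tested members of each gene list of at least 15 members that were called lower in males (left, red) or higher in males (right, blue), with the number of tested members in parentheses. Dashed lines mark the shares over all 16004 tested genes, 17.2% lower and 16% higher. Inhibitory neuron markers and neuropeptide receptors stand at the lower end, and oxidative phosphorylation, fatty acid oxidation and endothelial lists at the upper end.

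Genes of growing neurons were lower at 17 of 33 members and higher at 3 (median -0.55). STMN1, which takes microtubules apart, stood at 415, 676, 429.5, 378 and 475 CPM in males, against 1120, 1431 and 1687 CPM in females (log2 fold change -1.59, SE 0.13, adjusted p = 8.38e-09). BASP1, a growth cone protein, stood at 346, 408, 330.0, 322 and 389 CPM in males, against 762, 981 and 1087 CPM in females (log2 fold change -1.39, SE 0.08, adjusted p = 9.87e-11) and had the smallest p of the autosomal genes lower in males. Both left a wide gap between the sexes. SOX11 (-1.19), TUBB3 (-1.11), DPYSL3 (-0.81), GAP43 (-0.73) and DCX (-0.69) fell as well. The 3 higher members were NCAM1 (0.50), MLLT11 (0.67) and FABP7 (1.41), the last also a marker of radial glia and astrocytes.

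NEFM, a neurofilament gene whose product widens axons, stood at 885, 807, 786, 907 and 684 CPM in males, against 385, 435 and 513 CPM in females (log2 fold change 0.87, SE 0.14, adjusted p = 3.74e-05), and NEFL (0.48) and INA (0.59) were higher too. These were the only 3 of 36 cytoskeletal genes called higher, a share below the 16% of all genes. Another 10 were lower and 23 were not called, the lower ones including the microtubule protein MAPT (-0.76) and the kinesin KIF1B (-0.65).

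Of 21 genes for SLIT, ROBO, netrin and RGM signalling 14 were lower and 2 higher (median -0.70). SLIT1, a repellent ligand, stood at 32.9, 34.4, 24.6, 13.7 and 21.1 CPM in males, against 42.8, 59.9 and 109 CPM in females (log2 fold change -1.54, SE 0.24, adjusted p = 3.16e-05), without overlap. Its receptor ROBO2 was lower (-0.96) and ROBO1 was not called (-0.27, adjusted p = 0.214). Of 19 Eph receptors and ephrins 9 were lower, EPHB2 (-1.31), EPHA6 (-1.12), EPHA5 (-0.92) and EPHA7 (-0.82) among them, and 1 higher, EFNA1 (0.74). Plexins, neuropilins and semaphorins had 12 of 27 lower, led by PLXNA4 (-1.30), PLXNA2 (-1.10) and SEMA3F (-1.05), and 3 higher, of which SEMA7A had the largest change (1.39).

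Cadherins and protocadherins had 17 of 34 members lower and 3 higher. PCDH8, an activity-linked protocadherin (-1.74), PCDH19 (-0.83), CDH2 (-0.60) and CDH7 (-0.68) were lower. PCDH12 and CDH5, both of vessel walls, were 2 of the 3 higher members, with PCDH20 (1.35) as the other. PCDH12 stood at 45.4, 32.3, 36.6, 74.9 and 42.2 CPM in males, against 1.63, 4.4 and 6.32 CPM in females (log2 fold change 3.49, SE 0.30, adjusted p = 1.26e-08).

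Perineuronal nets are matrix coats around fast-spiking neurons, and their list had 5 of 37 members higher and 5 lower, close to the shares of all genes; without female replicate 7 the lower ones numbered 8. HAPLN4, a link protein that anchors brevican around synapses, stood at 43.5, 109, 88.6, 62.8 and 29.1 CPM in males, against 4.22, 8.36 and 13.7 CPM in females (log2 fold change 2.96, SE 0.30, adjusted p = 9.9e-08). BCAN, brevican, stood at 789.9, 497, 608, 653 and 738 CPM in males, against 153, 262 and 329.9 CPM in females (log2 fold change 1.36, SE 0.18, adjusted p = 5.67e-06). Every male lay above every female in both. CSPG5 (0.77) and PTPRZ1 (0.51) were higher too, whereas ACAN, aggrecan, was low in both sexes and not called (1.92 ± 1.01 CPM in males and 1.3 ± 0.742 CPM in females, adjusted p = 0.449). The matrix proteases ADAMTS5 (-1.44) and ADAMTS8 (-1.17) were lower.

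Collagens, laminins and other matrix genes had 13 of 65 members higher and 11 lower, beside 16% higher and 17.2% lower of all genes. COL4A1, of vessel basement membranes, stood at 85.3, 83.7, 87.3, 139.5 and 117 CPM in males, against 22.8, 31.4 and 38.6 CPM in females (log2 fold change 1.72, SE 0.16, adjusted p = 3.32e-08). SPARC (0.98), COL8A2 (1.48) and TIMP2 (0.79) were higher as well. COL25A1 (-1.67), a membrane collagen that neurons make, COL24A1 (-2.52) and SPOCK1 (-1.02) were lower.

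Vessel genes were higher in males, at 16 of 25 endothelial markers, with 1 lower (median 0.90). CLDN5, a tight junction protein of the blood-brain barrier, stood at 273, 355, 354, 399.8 and 364 CPM in males, against 131, 179 and 212 CPM in females (log2 fold change 0.97, SE 0.11, adjusted p = 8.49e-07). KDR, the main receptor of the growth factor VEGF, stood at 24.1, 15.8, 28, 37.8 and 20.1 CPM in males, against 2.58, 5.97 and 11.3 CPM in females (log2 fold change 1.93, SE 0.26, adjusted p = 4.26e-06). TEK (1.75), CDH5 (1.27) and EMCN (1.05) rose, FLT1 was not called (0.14, adjusted p = 0.445), and MFSD2A, a lipid transporter of the barrier, fell (-1.21). The summed level of the list was 2207 to 2514 CPM in males and 1504 to 1867 CPM in females, of which ITM2A made up 52.94%. Of 18 genes of mural cells and fibroblasts 5 were lower, MYH11 (-1.33) and TAGLN (-1.27) of smooth muscle among them, and 2 higher, VTN (1.45) and DCN (1.28), with a list median of 0.04. Their sum was 819.7 to 1021 CPM in males and 383.9 to 671.7 CPM in females, and VTN alone made up 58.82% of it. None of 6 red blood cell genes was called, and their sum was 30.88 to 54.72 CPM in males and 30.02 to 64.37 CPM in females.

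Astrocyte markers were higher at 14 of 25 members and lower at none (median 0.55). SLC4A4, a bicarbonate transporter, stood at 452, 378, 495, 589 and 571 CPM in males, against 139, 179 and 228 CPM in females (log2 fold change 1.45, SE 0.13, adjusted p = 2.82e-08). SLC1A2, which clears glutamate, averaged 3554 ± 742 CPM in males and 2007 ± 266 CPM in females (0.82), and AQP4 786 ± 134 CPM in males and 499 ± 67.8 CPM in females (0.65). The GABA transporter SLC6A11 (0.76), FABP7 and the thyroid hormone transporter SLCO1C1 (0.88) were also among the called. The list summed to 14140 to 16520 CPM in males and 8733 to 12960 CPM in females.

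Myelin genes had 2 of 23 members called higher and 1 lower, below the 16% and 17.2% of all genes, with a median of 0.40. The number higher ran from 1 to 6 in fits that each leave out 1 library, with 6 without female replicate 7 or without female replicate 3 of 20 days. The list summed to 9995 to 15640 CPM in males and 4819 to 9946 CPM in females, without overlap, and MBP made up 48.54% of the sum. MBP, the basic protein of myelin, stood at 7105, 4835, 6655, 9118 and 6478 CPM in males, against 1476, 2641 and 4619 CPM in females. No male overlapped a female, but MBP missed the threshold (log2 fold change 1.31, SE 0.51, adjusted p = 0.0515), while DESeq2 called it (adjusted p = 0.0171). Oligodendrocyte precursor markers had 3 of 12 members lower and 2 higher, beside 17.2% lower and 16% higher of all genes. PDGFRA was among the lower (-0.93). This list summed to 1236 to 1615 CPM in males and 714.2 to 1018 CPM in females, and BCAN made up 37.75% of the sum. Microglial markers had 3 of 23 members higher and 2 lower, shares below the 16% and 17.2% of all genes. The lower ones numbered 0 to 4 in fits without 1 library. Those higher included AOAH and the protease CTSB (0.31), while the defining genes CSF1R (-0.33, adjusted p = 0.377), C1QA and C1QB were not called. The share of these cell types in the differences of other genes was not tested.

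**Figure D4:**
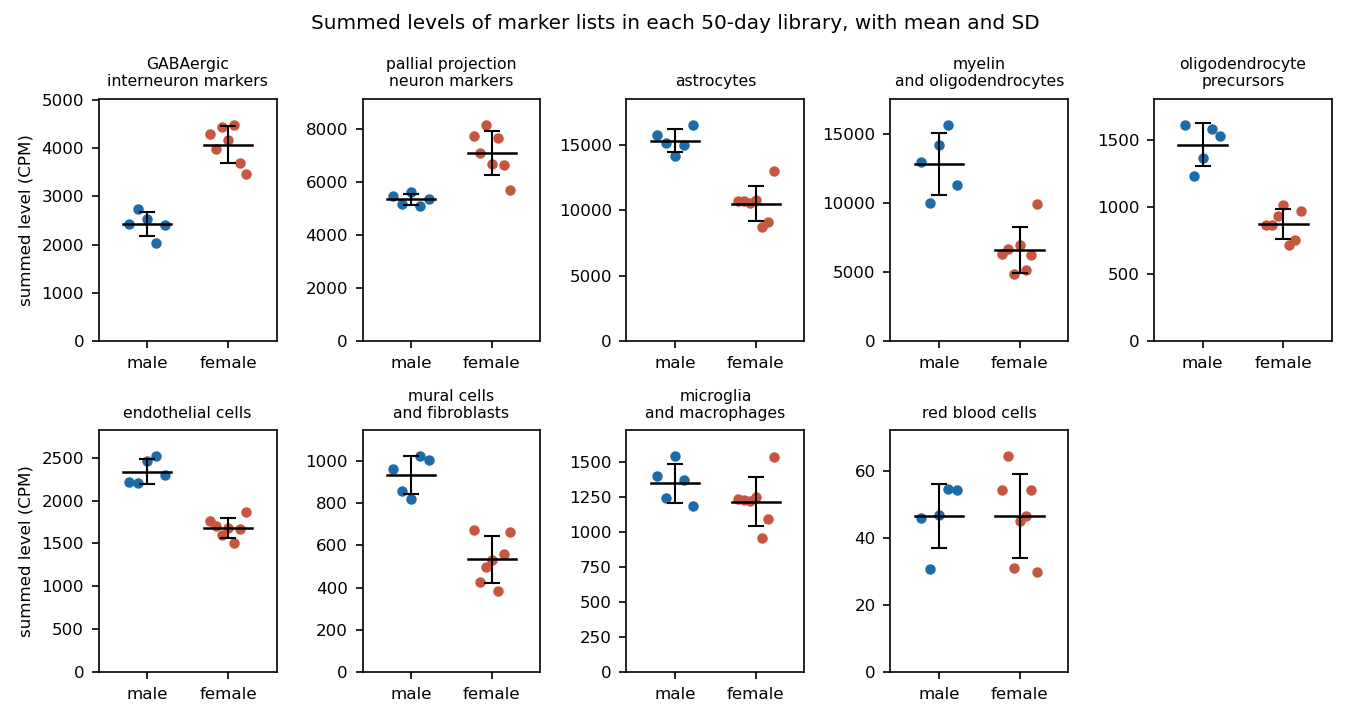
Summed levels (CPM, axes from 0) of 9 lists of cell type markers in each 50-day library, males (n = 5) at the left and females (n = 7) at the right, with the mean and SD. Males lay below all females for inhibitory and pallial projection neuron markers and above all of them for astrocytes, myelin, oligodendrocyte precursors, endothelial cells and mural cells, and the sexes overlapped for microglia and red blood cells. Single genes make up much of some sums, such as VTN with 58.82% of the mural one.

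Genes of steroid action had 7 of 25 members higher and 3 lower, and most of the rises were of enzymes. SRD5A2, which turns testosterone into the stronger androgen dihydrotestosterone, stood at 99.7, 98.5, 92.8, 141 and 104 CPM in males, against 23.9, 32.1 and 50 CPM in females (log2 fold change 1.64, SE 0.21, adjusted p = 3.65e-06). CYP7B1 (0.93), HSD17B12 (0.69) and the Z-linked HSD17B4 (1.07) were higher. The oestrogen receptors ESR1 (-1.03, adjusted p = 0.123) and ESR2 (1.17, adjusted p = 0.358) and aromatase, CYP19A1 (-0.82, adjusted p = 0.298), were not called at levels of about 1 to 3 CPM.

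Thyroid hormone and retinoic acid genes had 4 of 23 members higher and 5 lower, beside 16% higher and 17.2% lower of all genes. DIO2, which activates thyroid hormone, stood at 274, 342, 329.7, 438 and 446 CPM in males, against 68.4, 103 and 149 CPM in females (log2 fold change 1.79, SE 0.18, adjusted p = 1.19e-07), and the lowest male was well above the highest female. The receptor THRB (-0.48) was lower. ALDH1A2, which makes retinoic acid, was higher (1.23), and CYP26B1, which breaks it down, was lower (-0.87).

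Growth factors and their receptors were split evenly, 18 of 81 higher and 19 lower, beside 16% higher and 17.2% lower of all genes. PTN, pleiotrophin, stood at 1110, 1186, 1334, 1182 and 1081 CPM in males, against 556, 581 and 672 CPM in females (log2 fold change 0.99, SE 0.07, adjusted p = 1.3e-09), a narrow range in each sex. PDGFD (2.24) and FGF9 (0.96) were higher, and PDGFA (-1.11), IGFBP5 (-1.05), NRG2 (-1.03) and the activin subunit INHBB (-1.92) lower. BDNF stood at 4.29, 4.15, 2.47, 1.98 and 2.85 CPM in males, against 4.94, 5.9 and 13 CPM in females (log2 fold change -1.18, SE 0.29, adjusted p = 0.00273). Its receptor NTRK2, on Z, was higher (0.54), by less than the median Z-linked gene (0.67). The related NTRK3, an autosomal receptor, was lower (-0.74).

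Energy metabolism gave the largest share higher in males. Of 73 oxidative phosphorylation genes 52 were higher and none lower, with a median log2 fold change of 0.46. Only 4 of the 73 are Z-linked, all 4 of them higher, and without them the median was 0.45. The changes were mostly modest, as in NDUFS1 of complex I (0.41), SDHA of complex II (0.46) and cytochrome c, CYCS (0.46).

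Fatty acid oxidation and ketone use had 28 of 43 members higher and 2 lower (median 0.46), with ACSL6, which loads long-chain fatty acids onto CoA (1.08), ACADL (0.72), ETFA (0.79) and, on Z, ACAA2 (1.82). The coactivator PPARGC1A was higher (0.54) and its relative PPARGC1B lower (-0.96). In the citrate cycle and pyruvate entry 19 of 35 were higher and 1 lower. GLUD1, which feeds glutamate into the cycle, stood at 1559, 1450, 1547, 2032 and 2163 CPM in males, against 613, 699.9 and 864 CPM in females (log2 fold change 1.27, SE 0.12, adjusted p = 2.79e-08). MPC1, the pyruvate carrier, was higher too (0.79).

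Glycolysis, lactate and creatine genes had 18 of 31 members higher, among them glycogen phosphorylase PYGB (1.13), the lactate carrier SLC16A7 (0.87), mitochondrial creatine kinase CKMT1A (0.90) and ENO1 (0.49), and 3 lower, PFKP (-0.54) among them. Antioxidant and thioredoxin enzymes had 20 of 36 higher and 2 lower. PRDX6, a peroxidase, stood at 940.2, 895, 778, 1325 and 935 CPM in males, against 332, 375 and 505 CPM in females (log2 fold change 1.30, SE 0.15, adjusted p = 5.47e-07). TXN on Z (1.43), PRDX3 (0.82) and SOD2 (0.79) were higher with it.

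Lysosome and autophagy genes had 16 of 46 members higher and 3 lower (5 without female replicate 7), and cholesterol synthesis 6 of 22 higher and 2 lower, SQLE (-0.67) among the lower. For the mitochondrial ribosome 18 of 67 were higher and 1 lower, and for the cytosolic ribosome 8 of 67 higher and none lower, a share below the 16% of all genes, and 5 without male replicate 2, male replicate 4 or female replicate 6. The proteasome had 5 of 30 higher, near the 16% of all genes, and 1 lower, and 3 higher without male replicate 4 or 5. Heat shock and stress genes had 11 of 37 lower, ATF4 (-0.75) and HSPH1 (-0.82) among them, and 4 higher. The lower ones numbered 5 to 7 without male replicate 2, 4 or 5, female replicate 7 or female replicate 4 of 20 days. Genes of cell death and axon degeneration had 7 of 39 higher, FAS (1.79) and BIRC2 (0.66) among them, and 5 lower. These shares were near the 16% higher and 17.2% lower of all genes. Without male replicate 4 the higher ones numbered 3, and without male replicate 1 so did the lower ones. Genes of cell proliferation had 8 of 30 higher (5 without male replicate 5) and 3 lower, while MKI67 (-0.05, adjusted p = 0.926) and PCNA (-0.28, adjusted p = 0.548) were not called.

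The sex difference measured at 20 days was far smaller, but at that age all male libraries were shallow and all female ones deep. At that age 337 of 16004 genes (2.11%) were called, and the median size of the log2 fold change over all tested genes, sign left aside, was 0.36 at 50 days and 0.16 at 20 days. Of the 2556 genes higher in males at 50 days 266 were also called higher at 20 days, and of the 2748 lower ones 13 were called lower and 2 higher. Most of that continuity was Z-linked: 253 of the 281 Z-linked genes called higher at 20 days were higher at 50 days too. The median log2 fold change of Z-linked genes was 0.67 at 50 days and 0.69 at 20 days, while its SD was 0.751 at 50 days and 0.428 at 20 days.

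At 20 days PVALB averaged 1015 ± 317 CPM in males and 682 ± 288 CPM in females (SD, n = 5 each), VAMP1 27.6 ± 7.47 CPM in males and 28.3 ± 12.5 CPM in females, and STMN1 1889 ± 186 CPM in males and 1914 ± 281 CPM in females. None of these was called at that age (adjusted p = 0.368, 0.987 and 0.986). KCNJ10 averaged 11.8 ± 3.23 CPM in males and 14.4 ± 1.94 CPM in females at 20 days.

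Tested directly, the sex difference at 50 days differed from that at 20 days for 1971 genes (12.3%), 920 toward a male excess and 1051 toward a female excess. At 20 days all male libraries were shallow and all female ones deep, and the part of depth cannot be told apart from that of sex there. A model that also held the depth set called 72 genes. Those 72 shared 71 genes with the 1971. They included KCNJ10 (adjusted p = 0.00662), DOK5 (0.0065), NEXMIF (0.00662), LRRTM2 (0.00662), BASP1 (0.011), HAPLN4 (0.0112), PTN (0.0177), PVALB (0.0224), AQP9 (0.0309), SLC24A4 (0.0309), PCDH8 (0.0359), VAMP1 (0.0403), VIM (0.0433) and STMN1 (0.0444), all in edgeR's quasi-likelihood test.

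**Figure D5:**
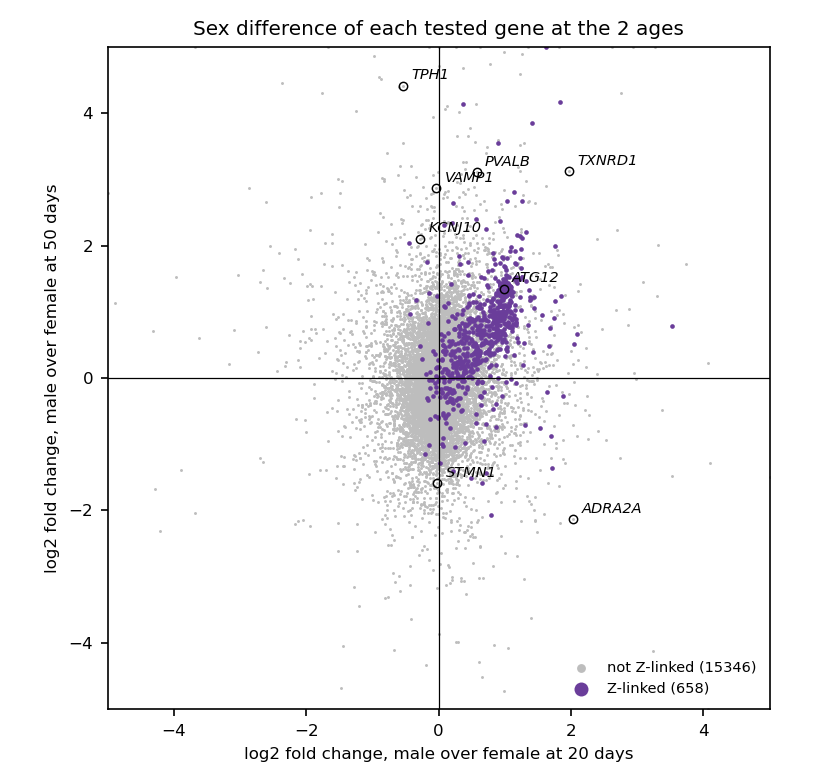
Log2 fold change (male over female) of the 16004 tested genes at 50 days, on the vertical axis, against that at 20 days, on the horizontal axis, with the 658 Z-linked genes in purple and values beyond 5 drawn at the edge. Z-linked genes lie mostly at positive values at both ages, with medians of 0.67 at 50 days and 0.69 at 20 days, and the other genes spread further along the 50-day axis.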

How the data were processed

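RNA was sequenced from RA in 22 libraries. The authors deposited 1 table of raw read counts per gene, with 21955 entries. Per the submitters' processing notes, the tools included Trimmomatic 0.36 (trimming), FastQC 0.11.9 (quality checks) and STAR 2.6.1 (alignment). Not given in the sources used here are the counter, the strand setting, the annotation and the genome build, so overlapping and near-identical genes may share reads. The 169 entries without a gene ID (0.0344% to 0.0739% of counts) were left out. Of 21786 IDs, 16205 matched the bTaeGut7.mat gene table (96.9% of counts), which was used for chromosomes and may differ from the build the authors aligned to. Genes were kept that passed the low-count filter of edgeR, at least 0.462 counts per 1000000 (CPM) in 5 libraries, which left 16004. Of these, 2 passed through the male 50-day libraries only and 3 through the female ones only.

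The 22 libraries, in 4 groups of sex and age, were fitted together with edgeR 4.0.16 (quasi-likelihood test, TMM scaling, limma 3.58.1, R 4.3.3), and p-values were adjusted over the 16004 genes by Benjamini-Hochberg. Levels are CPM after TMM scaling, and a fold change is male over female. The p-values measure the spread between these libraries, each of which has its own brain id, although female replicates 5 and 6 share a number in theirs. Library values were compared with exact two-sided permutation tests in Python 3.11.15 (pandas 2.3.3, numpy 2.4.6), and plots were drawn with matplotlib 3.10.9. The reads carry no molecular identifiers, so PCR copies count as reads and depth limits counting error only. On simulated counts for 15804 genes the edgeR step recovered 29% of 98 genes changed by 1.5-fold and 54% of 98 changed by 2-fold between the sexes at 50 days, with 0 false calls. The simulation changed few genes and drew each library independently, whereas 33.1% of tested genes were called in the data. Its rates therefore need not hold for the real counts.

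Genes were named by a rule: genes with the largest or most abundant differences without overlap, those with the smallest p, those whose difference changed most with age, Z-linked genes against the male excess, and called or defining members of 63 gene lists (2049 genes, of which 1721 were tested). Some genes the rule takes are not reported here. The lists and comparisons were chosen with earlier results of these data known. Alternatives were DESeq2 1.42.0, limma voom, other scalings, filters and thresholds, depth terms or subsets, summed female replicates, a replicate block and leaving out each library.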

Additional observations from a re-analysis of the deposited data

Results flagged for a closer look

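The sex difference at 50 days differed from that at 20 days for 1971 genes by a test of the difference itself in edgeR's quasi-likelihood model, and for 72 with depth set as a term. The following values are the log2 sex difference (male minus female) at 50 days minus that at 20 days, for the genes named for its size. It was 4.95 for TPH1, 5.28 for LAMTOR1, 3.02 for KCNK17, 2.98 for CLEC3B and 3.76 for VIPR1, all of which were called higher in males at 50 days. The fitted values of 10.21 for SIX2 and -22.92 for UCN3 rest on libraries without counts and are no bounds. It was 3.30 for HBE1 and 4.22 for TMEM269, neither of which was called at 50 days. At 20 days HBE1, a haemoglobin gene, averaged 8.23 ± 3.25 CPM in males and 31 ± 21.2 CPM in females (SD, n = 5 each). Toward a female excess stood RP2 (-2.54), ADRA2A (-4.16), VIM (-2.45), CPNE7 (-2.87), KCNQ5 (-3.17), PALM (-2.69) and ADGRD2 (-3.44). ADRA2A averaged 351 ± 151 CPM in males and 85.9 ± 105 CPM in females at 20 days, so its order between the sexes was the opposite of that at 50 days. Among these 16 genes only VIM and UCN3 were called with the depth term.

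LAMTOR1, an anchor of nutrient signalling on lysosomes, stood at 5.71, 2.97, 4.89, 61.5 and 58.2 CPM in male replicates 1 to 5, against 2.42, 3.82 and 6.33 CPM as the lowest, median and highest of the females. Male replicates 4 and 5 carry its call.

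Of 124 groups of libraries examined, 8 held a library that stood apart from the rest of its sex by Dixon's test, which marks about 1 in 20 groups by chance. Female replicate 1 was the highest female for KCNS1 (87.8 CPM), KCNC1 (183 CPM) and BDNF (13 CPM), and female replicate 7 for ACOT12 (25.5 CPM). Male replicate 1 was the highest male for ARC (131 CPM), male replicate 2 for GRIN2B (58.5 CPM), and male replicate 4 for KCNQ5 (5.62 CPM) and SRD5A2 (141 CPM).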

How the results depend on the processing

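The count of 5304 genes called between the sexes at 50 days (2556 higher and 2748 lower in males) was 3189 when tested against a fold limit of 1.2 (1624 higher and 1565 lower), 3500 at an adjusted p under 0.01 (1749 lower), 1956 in the shallow libraries alone (1116 higher and 840 lower) and 999 in the deep libraries alone (527 higher and 472 lower). The deep set holds 3 male libraries and 1 female library at 50 days, so the lone female is assumed to vary like the groups that supply the spread. Leaving out 1 library at a time gave 4477 to 5350 genes (2184 to 2607 higher and 2293 to 2767 lower). DESeq2 gave 5743 and limma voom 5419. For the 1971 genes whose difference changed with age (920 toward a male excess and 1051 toward a female excess), the count was 995 against the fold limit (456 and 539), 755 at an adjusted p under 0.01 (367 and 388), 72 with the depth term (38 and 34) and 1506 to 2131 (700 to 999 and 806 to 1132) without 1 library. The differences between library means ran from 0.5994 to 0.6236 for the Z score, 178.1 to 313.1 for genes detected and 1.074 to 1.229 percentage points for the share of the 50 most abundant genes. Male and female libraries of the same replicate number did not deviate together (correlations of -0.0597, 0.0113, 0.0436, -0.041 and -0.0238), so the numbers are not taken as pairs. With a replicate block 4765 genes were called at 50 days and 1764 for the change with age, and CRHBP, CYP26B1, MYH11, TAGLN and VIPR1 lost their calls. Of 494 named genes 447 kept direction and call with the depth term. The log2 fold change turned round for LAMTOR1 (-0.1283) and HEY1 (-0.001524) in the shallow libraries alone and for HSPA8 (0.09431) in the deep ones alone. The cause was not tested. Counts of up to 4 members per list often moved by over 1.5 times without 1 library. Of the lists in which edgeR called no member in a direction, those of red blood cells (1 higher) and ependyma (1 higher and 1 lower) had members at an unadjusted p under 0.05, limma voom called 1 ependymal and 1 W-linked gene lower, and DESeq2 called 0. A mitochondrial share was not computed and that alternative was not run.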
